A study of Mus musculus with 26 samples.

Results

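Untreated neurospheres (NSPs) were compared after 48 h and after 24 h of differentiation toward astrocytes. The comparison takes the 3 arrays labelled as control at 48 h and the 3 labelled as control at 24 h, which are 6 of the 26 arrays of the series, and was chosen by label and not by any measured value. Of the 35556 probe sets on the array, 23410 carry a gene symbol, and all 35556 were tested. NSPs were grown from neural stem cells of the ventricular zone of C57BL/6J mouse embryos at embryonic day 14, with no genetic change, and were plated on poly-L-ornithine in DMEM with 10% fetal bovine serum. The untreated 48 h cells and the untreated 24 h cells received nothing else. TNF-treated cells, also used here for their own change between 48 h and 24 h, had the same medium with 50 ng/mL TNF from the start, and untreated cells at 0, 6 and 72 h gave the earlier and later steps. Each of these groups holds 3 arrays, described as biological replicates, and the TNF-treated cells at 72 h, which enter the estimate of error and the plot of time courses, have 2, while the sources used here do not say which animals or cultures stand behind each array. The tests therefore measure the spread between these arrays. One of the untreated 48 h arrays, replicate 1, carries a source label naming only the serum, while its title and treatment label read control as for the others.

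Astrocytes arise from neural stem cells late in embryonic development. Serum and cytokines of the interleukin 6 family drive this step through JAK and STAT3, and BMP signals act beside them. Maturing astrocytes take up glutamate, potassium and glucose, buffer water through aquaporins, make lipoproteins and secrete many plasma-type proteins, among them protease inhibitors and complement. Ependymal cells, which carry motile cilia, come from the same embryonic progenitors.

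Signals are log2 values that the authors computed from the probes of each probe set, so a difference of 1 is a doubling of signal. The 6 arrays correlated with each other at 0.982 to 0.995 and had closely similar medians of 7.66 to 7.71. The astrocyte label was checked against marker genes, each within its own probe set, since levels of different probe sets are not on a common scale. *Gfap*, the intermediate filament of astrocytes, averaged 13.52 ± 0.14 at 48 h and 13.33 ± 0.21 at 24 h (SD, n = 3 each), against 9.002 at the start, and the 34 measured astrocyte markers had a median change of 0.44 between 6 h and 24 h. Markers of other cell types were followed in the same way. Of 20 microglia and macrophage genes, 16 were above 0 in the comparison of 48 h with 24 h (median 0.08), and their mean was 6.65 to 6.87 in the 48 h arrays and 6.63 to 6.66 in the 24 h arrays. Of 20 endothelial, mural and fibroblast genes, 19 were above 0 (median 0.09), with a mean of 6.99 to 7.26 at 48 h and 6.93 to 6.98 at 24 h. Among all genes 58.1% were above 0, with a median of 0.02. Without 48 h replicate 1 the median was −0.05 for the microglia and macrophage list and −0.0007 for the endothelial, mural and fibroblast list. Without any other of the 6 arrays both medians stayed above 0. In these lists 0 genes passed the limma test, with 0 and 1 higher at an unadjusted p under 0.05, beside 3.48% of all genes. Their part in the results was not tested. Because RNA came from whole cultures, more cells of a type and more RNA per cell cannot be told apart.

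At a q-value under 0.05, 42 probe sets were higher at 48 h than at 24 h (0.118% of all tested) and 1 was lower (0.00281%). The 42 stand for 36 named genes and 4 probe sets with no symbol. Counted with the brightest probe set of each gene only, 35 of 19938 genes were higher (0.176%) and 1 was lower (0.00502%), because the *Spef2* probe set that passed is not the brightest one of that gene. At an unadjusted p under 0.05 there were 1626 of 35556 probe sets (4.57%), of which 904 were higher at 48 h and 722 lower. Where nothing differs, that threshold still lets through a fraction of about 0.05 of the tests. The count was below this fraction, so it does not show that further probe sets moved. The rises that passed ran from 0.53 to 2.22 on the log2 scale, and 25 of them were at least 1. In all 43 probe sets the 3 arrays at 48 h lay apart from the 3 at 24 h, which their choice by a test on these arrays favours. Among all genes, 8.5% had every 48 h array above every 24 h array, and 6.1% had every one below. The strongest q-value of all, 7.14e-08, belonged to a probe set without a gene symbol, 10452316, which was higher by 2.19 ± 0.15 (SE). The other 3 without a symbol, 10489498, 10345762 and 10362729, were higher by 1.31, 1.27 and 0.92. These counts depended on the fit. Array weights gave 263 higher and 94 lower, replicate number as a block over all arrays 101 and 8, and the block with only the 6 arrays 0 and 0. A fit to the 6 arrays without a block gave 21 and 1, and among the named genes only *Plscr2*, *A2m*, *Cnmd*, *Cxcl10*, *Slc22a4*, *Gpld1*, *Tspan18*, *Flvcr1*, *Cebpd*, *Acot5* and the dimmer probe set of *Adamtsl1* kept their calls in it. With 1 of the 6 arrays left out, 16 to 29 probe sets were higher, and only *Plscr2*, *Lbp*, *Cnmd*, *Cxcl10*, *Gpld1*, *Adamtsl1*, *Ptger3* and the dimmer probe set of *Flvcr1* among the named genes passed in each of these 6 fits.

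**Figure D1:**
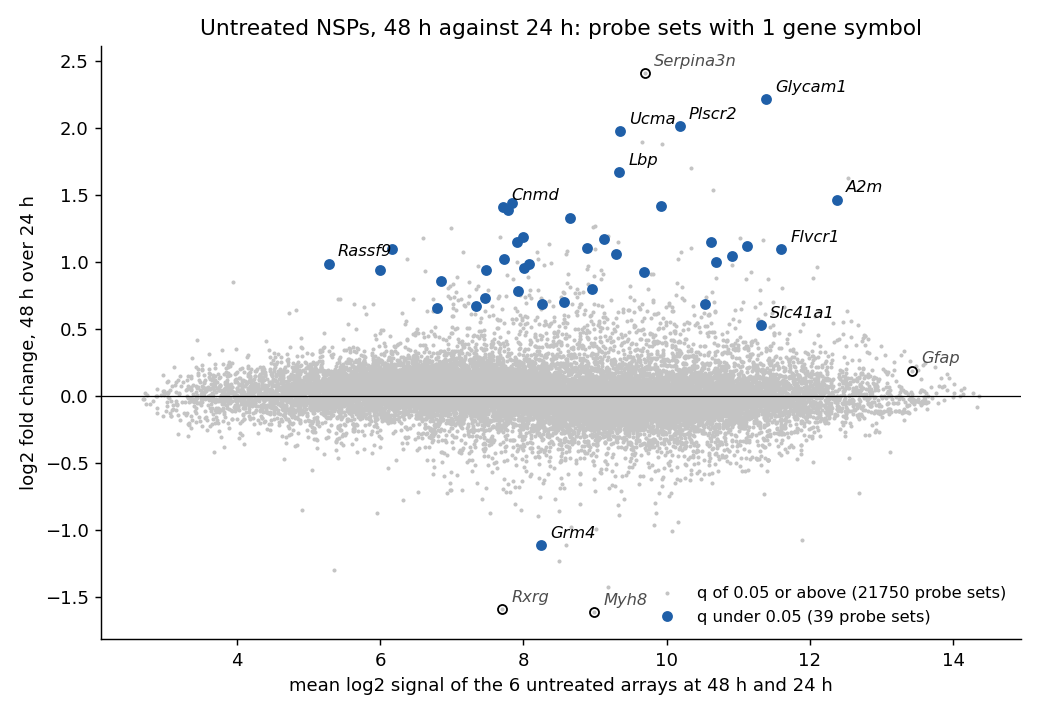
Change in untreated NSPs from 24 h to 48 h against signal. Each point is 1 of the 21789 probe sets with a single gene symbol, the horizontal axis gives the mean log2 signal of the 6 arrays and the vertical axis the log2 fold change, 48 h over 24 h. The 39 blue points have a q-value under 0.05, 38 of them above 0 and only *Grm4* below it, and open circles name 4 probe sets that did not pass.

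The largest rises belonged to genes of varied kinds. *Glycam1* (chr15:103562759-103565081 on GRCm38.p6) encodes a mucin-like glycoprotein known as a ligand of L-selectin, and its signal was 12.74, 11.92 and 12.84 in the 48 h arrays, against 10.73, 9.54 and 10.57 in the 24 h arrays. Every 48 h array was above every 24 h array by more than 1 log2 unit, and replicate 2 was the lowest at each time. The rise was 2.22 ± 0.37 (SE), or 4.66-fold, with a q-value of 0.0116. *Plscr2* (chr9:92275602-92297752), a phospholipid scramblase family gene, had signals of 11.27, 11.13 and 11.18 at 48 h, against 9.33, 8.72 and 9.49 at 24 h. Its 48 h arrays were nearly equal, its 24 h arrays were more spread, and the rise was 2.01 ± 0.22 (SE, q = 0.000118). *Ucma* (chr2:4976122-4985748), which encodes a secreted protein of cartilage matrix, had signals of 10.55, 10.13 and 10.34 at 48 h, against 8.80, 7.55 and 8.74 at 24 h, again without overlap and again lowest in replicate 2 at each time (1.98 ± 0.33, SE, q = 0.0125). *Cnmd* (chr14:79637682-79662194), which encodes chondromodulin, another glycoprotein of cartilage, stood at 8.43, 8.34 and 8.49 at 48 h, against 7.05, 6.90 and 7.07 at 24 h. Here the arrays of each time lay within 0.2 log2 units of each other, and the rise was 1.41 ± 0.17 (SE, q = 0.00034). *Plscr2* and *Cnmd* passed the test with each of the 6 arrays left out in turn. *Glycam1* and *Ucma* each lost it without 48 h replicate 1, without 48 h replicate 3 or without 24 h replicate 2, with rises of 1.85 to 2.51 for *Glycam1* and 1.57 to 2.20 for *Ucma* over the 6 fits.

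**Figure D2:**
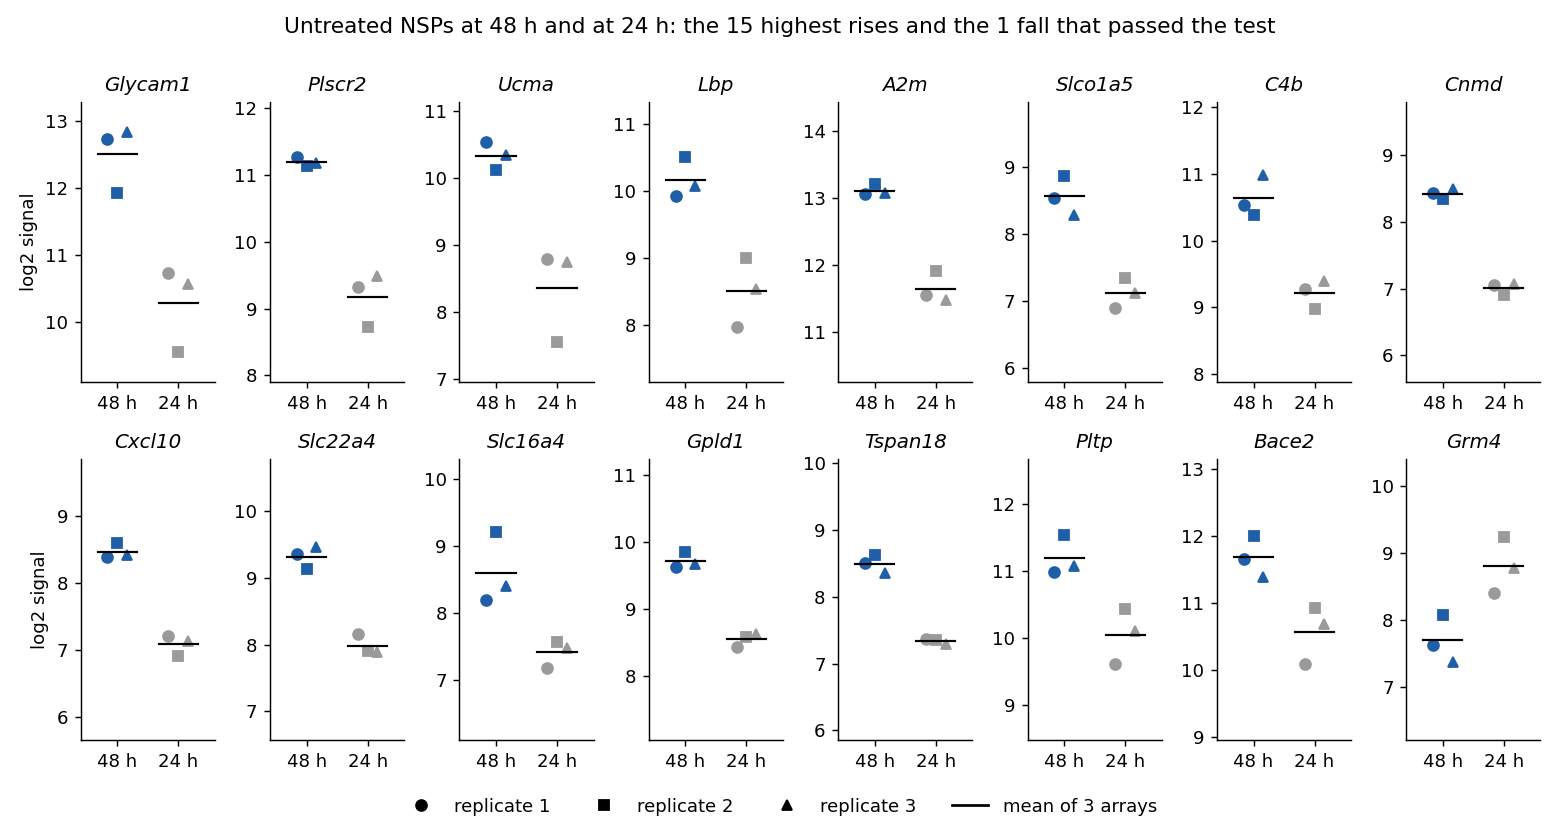
Signal of each array for the 15 genes with the highest rises that passed the test and for *Grm4*, which fell. Each panel gives the log2 signal (axes span the same 4.2 units) of the 3 untreated 48 h arrays on the left and the 3 untreated 24 h arrays on the right, with symbols for replicate number and a line at the mean. In all 16 panels the arrays of the 2 times do not overlap, which the choice of these genes by a test on the same arrays favours.

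Several of the genes that rose encode proteins known from blood plasma and from the acute-phase response. *Lbp*, the lipopolysaccharide-binding protein, had signals of 9.92, 10.52 and 10.08 at 48 h, against 7.96, 9.01 and 8.54 at 24 h, and rose by 1.67 ± 0.24 (SE, q = 0.0031). The protease inhibitor *A2m* was bright throughout, at 13.06, 13.20 and 13.07 at 48 h, against 11.55, 11.90 and 11.48 at 24 h, a rise of 1.47 ± 0.27 (SE, q = 0.0313). For each of these genes all the 48 h arrays were above all the 24 h arrays, and *Lbp* was highest in replicate 2 at each time. The complement gene *C4b* reached 10.53, 10.39 and 10.98 at 48 h, against 9.27, 8.97 and 9.40 at 24 h (1.42 ± 0.22, SE, q = 0.00773). *Pltp*, which moves phospholipids between lipoproteins, stood at 10.98, 11.54 and 11.08 at 48 h, against 9.61, 10.43 and 10.11 at 24 h (1.15 ± 0.22, SE, q = 0.0386). *Gpld1*, a phospholipase that releases proteins from their lipid anchors, stood at 9.63, 9.85 and 9.68 at 48 h, against 8.43, 8.58 and 8.62 at 24 h (1.17 ± 0.16, SE, q = 0.00269). The arrays of the 2 times did not overlap for any of them. *C4b* has a near-identical neighbour, *C4a*, and an array probe set may take up both transcripts. *Lbp* and *Gpld1* passed with each array left out in turn, although *Lbp* lost its call in the fit to only the 6 arrays. *C4b* lost its call without 48 h replicate 3 or 24 h replicate 2 (rises of 1.25 to 1.54 over the 6 fits), *Pltp* without any array but 24 h replicate 2 (0.93 to 1.34), and *A2m* without any 1 of the 6 (1.39 to 1.59).

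The transcription factor *Cebpd*, which acts in acute-phase and cytokine responses, had signals of 8.49, 8.36 and 8.61 at 48 h, against 7.47, 7.50 and 7.63 at 24 h. The replicates were close at each time and the rise was 0.96 ± 0.18 (SE, q = 0.0313), although the call was lost without any 1 of the 6 arrays (0.89 to 1.02). *Cxcl10*, a chemokine induced by interferons, stood at 8.40, 8.60 and 8.42 at 48 h, against 7.21, 6.91 and 7.14 at 24 h, and rose by 1.39 ± 0.21 (SE, q = 0.0053), a call kept without each array. The death receptor *Fas* was at 10.84, 10.96 and 10.83 at 48 h, against 9.98, 10.21 and 10.40 at 24 h (0.68 ± 0.13, SE, q = 0.0318). Its 24 h arrays were more spread than its 48 h arrays but stayed below them, and its call was kept only in the fit without 24 h replicate 3 (0.58 to 0.79 over the 6 fits). The prostaglandin E receptor *Ptger3* was dim, at 7.19, 7.47 and 7.18 at 48 h, against 6.38, 6.35 and 6.53 at 24 h, and rose by 0.86 ± 0.11 (SE, q = 0.00145), also without each array but not in the fit to only the 6 arrays.

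Other genes that rose encode membrane transporters. *Slco1a5*, which carries organic anions, had signals of 8.54, 8.87 and 8.28 at 48 h, against 6.89, 7.35 and 7.12 at 24 h (1.44 ± 0.26, SE, q = 0.0287). *Slc22a4*, a carrier of organic cations and ergothioneine, stood at 9.36, 9.14 and 9.45 at 48 h, against 8.16, 7.90 and 7.89 at 24 h (1.33 ± 0.25, SE, q = 0.0313). *Slc16a4*, of the monocarboxylate transporter family, stood at 8.18, 9.21 and 8.39 at 48 h, against 7.18, 7.57 and 7.47 at 24 h (1.19 ± 0.18, SE, q = 0.0053). No array of 48 h reached down to the 24 h arrays in these 3 genes, and replicate 2 was well above the other 48 h arrays for *Slc16a4*. *Flvcr1*, known as an exporter of heme and a carrier of choline, was measured by 2 probe sets, which rose by 1.10 ± 0.17 (q = 0.00592) and 1.04 ± 0.15 (q = 0.00269), the brighter of them at 12.27, 12.02 and 12.16 at 48 h, against 11.16, 10.88 and 11.11 at 24 h. *Slc41a1*, a magnesium carrier, gave the smallest rise that passed, 0.53 ± 0.10 (SE, q = 0.0315), at 11.52, 11.65 and 11.58 at 48 h, against 11.04, 11.03 and 11.09 at 24 h. Its arrays hardly varied within a time. *Slco1a4*, the close relative and neighbour of *Slco1a5*, did not pass the test, with a difference of 1.18 ± 0.32 (SE, q = 0.282). *Slc22a4* and *Slc41a1* lost their calls without any 1 of the 6 arrays (1.26 to 1.42 and 0.50 to 0.56 over those fits), *Slco1a5* without any but 48 h replicate 3 (1.29 to 1.58), *Slc16a4* without 24 h replicate 1 (1.08, and 0.88 to 1.40 over the 6 fits), and the brighter *Flvcr1* probe set without 24 h replicate 2 (1.01).

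The stretch of DNA around the start sites is shown for *Glycam1* and *Slco1a5* because these are the genes among the 4 highest rises with an available promoter that hold a match to a motif of a cytokine-driven factor. Promoter sequences are from RefSeq on GRCm38.p6, each with 250 bases before and 50 bases after the start site, 5′ to 3′ on the gene's strand, and 24 of the 36 genes that rose could be matched. Capitals mark a STAT motif match (TTCNNNGAA) or a C/EBP motif match (TTGCNNAA), searched on both strands.

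Glycam1 (chr15:103565032-103565331, minus strand): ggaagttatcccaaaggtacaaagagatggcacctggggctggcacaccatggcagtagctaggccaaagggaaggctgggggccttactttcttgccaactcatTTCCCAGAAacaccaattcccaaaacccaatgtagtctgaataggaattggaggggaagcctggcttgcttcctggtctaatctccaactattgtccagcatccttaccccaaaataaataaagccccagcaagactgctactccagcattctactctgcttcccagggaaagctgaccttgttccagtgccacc

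Slco1a5, upstream start site (chr6:142322932-142323231, minus strand): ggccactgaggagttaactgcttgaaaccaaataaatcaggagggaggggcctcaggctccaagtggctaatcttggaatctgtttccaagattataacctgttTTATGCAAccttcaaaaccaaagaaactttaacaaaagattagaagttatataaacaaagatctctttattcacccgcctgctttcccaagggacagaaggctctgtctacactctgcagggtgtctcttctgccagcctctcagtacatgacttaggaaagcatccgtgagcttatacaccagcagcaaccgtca

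Slco1a5, downstream start site (chr6:142278825-142279124, minus strand): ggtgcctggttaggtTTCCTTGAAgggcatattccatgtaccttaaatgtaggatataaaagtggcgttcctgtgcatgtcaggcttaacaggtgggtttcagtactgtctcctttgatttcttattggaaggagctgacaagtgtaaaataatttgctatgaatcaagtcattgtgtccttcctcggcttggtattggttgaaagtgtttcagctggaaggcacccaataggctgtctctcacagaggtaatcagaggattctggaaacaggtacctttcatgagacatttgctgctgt

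In the *Glycam1* window the STAT match begins 145 bases before the start site. In *Slco1a5* the C/EBP match begins 146 bases before the upstream start site, read on the opposite strand, and the STAT match begins 235 bases before the downstream one. The windows of *Ucma* and *Cnmd* held neither motif. Over the matched genes, a STAT motif was present for 4 of 24 (16.7%; *Calml4*, *Fas*, *Glycam1* and *Slco1a5*), beside 9.55% of all 27025 genes with a promoter, and a C/EBP motif for 4 of 24 (16.7%; *Gpld1*, *Phkg1*, *Pltp* and *Slco1a5*), beside 12.2% of all. For NF-κB the count depended on the letters used. A motif of GGG, any 2 bases and TTTCC, which was searched first, was present for 0 of 24, beside 1.89% of all, and a shorter one (GGANTTTCC), chosen after that result was known, for 1 of 24 (4.17%, *Cxcl10*), beside 1.45% of all. These are matches of letters only.

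*Spef2*, *Akap14* and *Cfap206*, which are genes of cilia or flagella, were also among those that rose, and they were put together after their values were seen. *Spef2*, needed for sperm flagella, was dim at 6.56, 6.98 and 6.62 at 48 h, against 5.58, 5.74 and 5.55 at 24 h (1.10 ± 0.19, SE, q = 0.0162). The gene is covered by 22 probe sets, of which this is the only one that passed, and the differences of all 22 were above 0, between 0.03 and 1.10. *Akap14*, an anchor of protein kinase A in cilia, and *Cfap206*, a protein of the ciliary axoneme, rose by 0.67 ± 0.13 (q = 0.0471) and 0.65 ± 0.12 (q = 0.0299). *Cfap206* stood at 7.18, 7.18 and 7.02 at 48 h, against 6.57, 6.36 and 6.49 at 24 h, so that the times did not overlap, and the same held for *Akap14*. A list of 20 ependymal and cilium genes, which holds none of these 3, had 0 members past the limma test, beside 0.176% of all genes, and 6 higher at an unadjusted p under 0.05, beside 3.48% of all genes. Of its 20 members 19 were above 0, beside 58.1% of all genes, and the median was 0.26 beside 0.02 for all genes. In 8 of the 20 every 48 h array was above every 24 h array, beside 8.5% of all genes. The count of 19 of 20 above 0 was not particular to cilium genes. The endothelial, mural and fibroblast list had the same count, with a lower median of 0.09 and 2 such separated members. *Rsph4a*, of the ciliary radial spoke, was at 7.26, 8.22 and 7.85 at 48 h, against 6.59, 6.96 and 7.31 at 24 h, which overlap, and differed by 0.82 ± 0.20 (SE, q = 0.165). *Ccdc40*, needed to assemble dynein arms, differed by 0.57 ± 0.13 (SE, q = 0.148), and *Foxj1*, the regulator of motile cilia, by 0.38 ± 0.14 (SE, q = 0.716). The mean of the ependymal and cilium list was 7.79 to 7.95 in the 48 h arrays and 7.56 to 7.64 in the 24 h arrays. The calls of *Akap14* and *Cfap206* were lost without any 1 of the 6 arrays (0.51 to 0.76 and 0.60 to 0.71), and that of *Spef2* in all fits but that without 48 h replicate 1 (0.97 to 1.18).

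The remaining genes that rose act in the matrix, in metabolism and in signalling. *Adamtsl1*, a matrix protein related to the ADAMTS proteases, had 2 probe sets that passed, with rises of 1.06 ± 0.16 (q = 0.0053) and 0.98 ± 0.10 (q = 3.14e-05). The dimmer of them stood at 8.53, 8.69 and 8.49 at 48 h, against 7.58, 7.60 and 7.58 at 24 h, values with almost no spread at 24 h, and each probe set kept its call without each array, while the brighter one lost it in the fit to only the 6 arrays. *Srgn*, the core protein of a proteoglycan of secretory granules, rose by 1.02 ± 0.17 (SE, q = 0.0116). *Bace2*, a protease related to the β-secretase of amyloid precursor protein, stood at 11.66, 12.01 and 11.39 at 48 h, against 10.09, 10.92 and 10.68 at 24 h (1.12 ± 0.22, SE, q = 0.0458). Among metabolic genes, *Rdh10*, which oxidizes retinol, *Phkg1*, a catalytic subunit of the kinase that switches on glycogen breakdown, *Ddo*, which oxidizes D-aspartate, and the acyl-CoA thioesterase *Acot5* rose by 0.80 to 1.001, with q-values of 0.0138 to 0.0386. *Acot5* lies in a cluster of similar genes whose transcripts may share its probes. Among genes of signalling and adhesion, the tetraspanin *Tspan18* stood at 8.50, 8.62 and 8.35 at 48 h, against 7.37, 7.35 and 7.29 at 24 h (1.15 ± 0.21, SE, q = 0.0313). Lower down came *Stard8*, with a lipid-binding START domain (1.10), *Nek11*, a kinase of the NIMA family (0.94), *Rassf9*, with a Ras association domain (0.99), *Prex2*, an activator of Rac (0.78), the calmodulin-like *Calml4* (0.73), the cell adhesion molecule *Nfasc* (0.70) and *Sorbs3*, which encodes vinexin (0.68), with q-values of 0.00619 to 0.0471. *Acot5*, *Tspan18* and *Prex2* lost their calls without any 1 of the 6 arrays, with rises of 0.86 to 1.001, 1.09 to 1.22 and 0.72 to 0.84 over those fits, and *Bace2* without any but 24 h replicate 2 (0.89 to 1.30). The other 10 genes named here after *Adamtsl1* lost theirs in 2 to 5 of the 6 fits, with rises of 0.58 to 1.24 over all of them.

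The only gene that fell was *Grm4* (chr17:27422387-27513826 on GRCm38.p6), which encodes a metabotropic glutamate receptor that inhibits adenylyl cyclase. Its signal was 7.63, 8.07 and 7.37 at 48 h, against 8.40, 9.23 and 8.77 at 24 h. The highest 48 h array was below the lowest 24 h array, and replicate 2 was highest at each time. The change was −1.11 ± 0.21 (SE, q = 0.0386), and the call was kept without 24 h replicate 1 or 48 h replicate 2 and lost without each other array, with values of −1.31 to −0.90. Scaling the arrays by cyclic loess or by their medians also ended this call, as did a fit to only the 6 arrays or only the untreated ones. Other large falls did not pass. *Myh8*, a myosin heavy chain of developing muscle, stood at 7.62, 8.94 and 7.98 at 48 h, against 9.27, 10.20 and 9.93 at 24 h (−1.62 ± 0.45, SE, q = 0.307). *Rxrg*, a retinoid X receptor, stood at 6.94, 6.90 and 6.90 at 48 h, against 8.20, 8.58 and 8.74 at 24 h (−1.59 ± 0.50, SE, q = 0.497). For each of these genes the 2 times do not overlap either, while the error, which is estimated from the spread within all 9 groups, is wide.

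The same holds for some of the largest differences in the other direction. The highest of all, *Serpina3n*, a serine protease inhibitor of reactive astrocytes, stood at 10.71, 10.67 and 11.34 at 48 h, against 7.98, 9.29 and 8.22 at 24 h, a difference of 2.41 ± 0.63 (SE, q = 0.238). *Slc14a1*, the urea transporter, stood at 11.50, 10.54 and 11.54 at 48 h, against 10.08, 9.01 and 9.38 at 24 h (1.70 ± 0.41, SE, q = 0.162), and it passed with replicate number as a block over all arrays (q = 0.00639) but not with the block and only the 6 arrays. Neither gene has overlapping times, and *Serpina3n* varied at 24 h by more than 1 log2 unit. *Prelp*, a small leucine-rich matrix protein, differed by 1.88 ± 0.39 (q = 0.0657), *Tm4sf1* by 1.54 ± 0.31 (q = 0.0544), the complement regulator *Cd59a* by 1.90 ± 0.49 (q = 0.238), and *Osmr*, the receptor of oncostatin M, by 1.08 ± 0.26 (q = 0.162). In total, 26 probe sets with a single symbol differed by more than 1 without passing, and 8 by less than −1.

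No single astrocyte marker passed, and the list as a whole was not tested. Of 34 measured, 0 had a q-value under 0.05 in limma, beside 0.176% of all genes higher. At an unadjusted p under 0.05, 4 were higher and 1 lower, beside 3.48% and 1.48% of all genes. In the list 25 were above 0 and 9 below, and the median was 0.17 beside 0.02 for all genes, of which 58.1% were above 0. In 11 of the 34 all 48 h arrays were above all 24 h arrays (8.5% of all genes), and in 1 all were below (6.1% of all genes). *Clu*, the chaperone clusterin, was the nearest to a call, at 12.59, 12.61 and 12.52 at 48 h, against 11.58, 11.59 and 11.67 at 24 h. The times were well apart with hardly any spread within them, and the difference was 0.96 ± 0.19 (SE, q = 0.0555). With replicate number as a block over all arrays *Clu* passed (q = 0.0174), as it did in the fit to only the 6 arrays without a block (q = 0.0267). With the block and only the 6 arrays it did not. *Gfap* differed by 0.19 ± 0.26, with a 95% confidence interval of −0.36 to 0.74 (q = 1), *Aldh1a1*, which makes retinoic acid, by 0.36 ± 0.41 (q = 1), and *Cd44*, a hyaluronan receptor, by 0.18 ± 0.29 (q = 1). The glutamate transporters *Slc1a2* and *Slc1a3* differed by 0.40 ± 0.20 and 0.19 ± 0.10, *Mlc1*, a membrane protein of astrocyte end feet, by 0.38 ± 0.10 (q = 0.257), and the matrix protein *Tnc* by −0.73 ± 0.48.

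Of the 22 measured members of the JAK-STAT3 list, *Cebpd* was the 1 that passed (4.55%, beside 0.176% of all genes), and it had been found in the overall test. *Stat3* itself was at 12.20, 12.14 and 12.21 at 48 h, against 12.05, 11.998 and 12.06 at 24 h, a small difference of 0.15 ± 0.10 (q = 1) without overlap. The feedback inhibitor *Socs3* stood at 9.55, 9.12 and 9.65 at 48 h, against 8.79, 8.66 and 8.85 at 24 h (0.67 ± 0.18, SE, q = 0.29). The list's median was 0.09. In 6 of the 22 members the 48 h arrays were all above the 24 h arrays, among all genes 8.5%. Among 19 NF-κB genes 0 passed, the median was 0.15, and *Nfkbia*, the inhibitor that NF-κB induces, differed by −0.18 ± 0.14, with values of 9.84, 9.78 and 9.76 at 48 h, against 9.78, 10.12 and 10.04 at 24 h. *Ccl2* differed by 0.75 ± 0.35 and *Lcn2*, lipocalin 2, by 1.08 ± 0.35 (q = 0.545). *Lcn2* was at 7.59, 7.29 and 8.22 at 48 h, against 6.87, 6.36 and 6.63 at 24 h, which do not overlap.

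**Figure D3:**
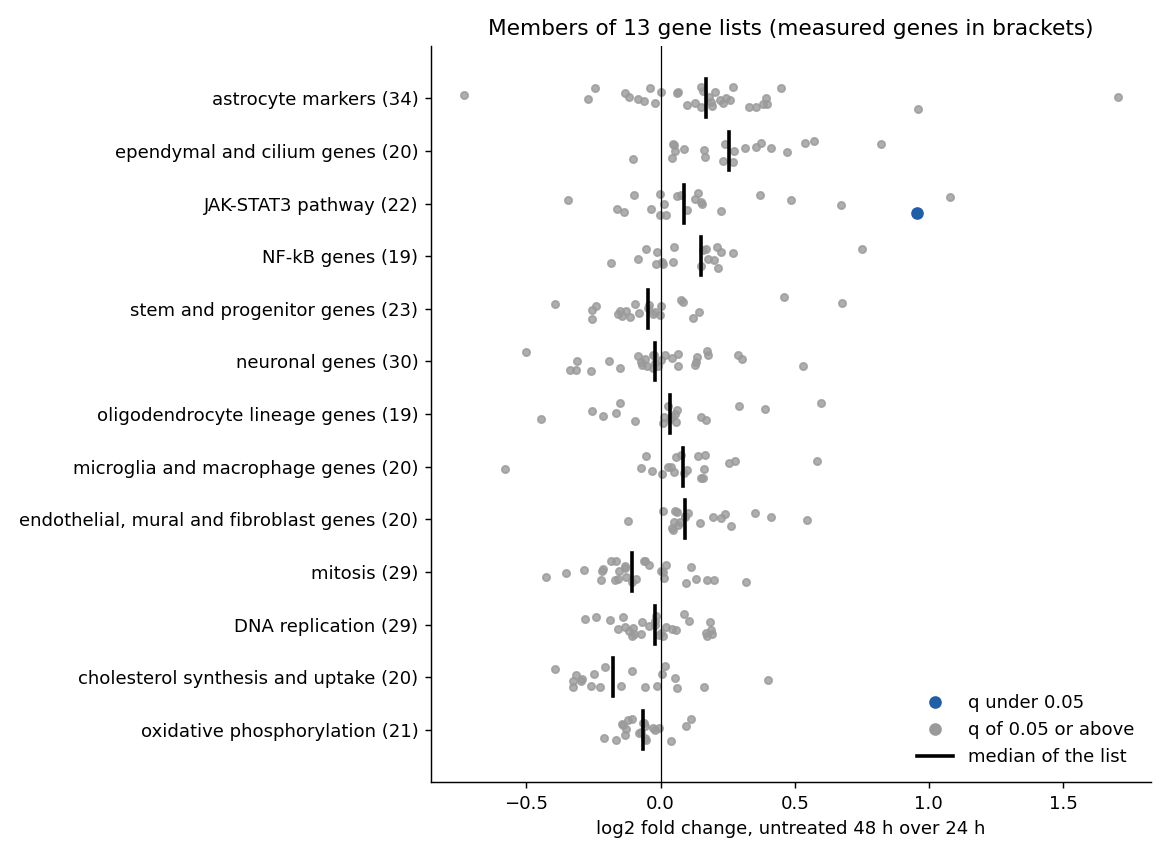
Log2 fold change, untreated 48 h over 24 h, of the members of 13 gene lists. Each point is a gene, jittered vertically, the thick line is the median of the list and the number in brackets the genes measured. The only blue point, with a q-value under 0.05, is *Cebpd*, and the list medians lie between −0.18 for cholesterol synthesis and 0.26 for cilium genes.

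Genes of the stem cell state and of the cell cycle gave no call either. Among all genes only 0.176% passed as higher and 0.00502% as lower. In lists as short as those of this paragraph, 0 calls therefore do not set the members apart from other genes. Of 29 mitosis genes, 0 passed and 19 were below 0, with a median of −0.11, and of 29 DNA replication genes, 0 passed with a median of −0.02. In these lists 0 members reached an unadjusted p under 0.05, beside 3.48% of all genes higher and 1.48% lower. With 1 of the 6 arrays left out, the mitosis median ran from −0.29 (without 48 h replicate 2) to 0.14 (without 24 h replicate 2). *Mki67*, the proliferation marker, stood at 6.99, 7.34 and 6.44 at 48 h, against 6.80, 8.08 and 7.15 at 24 h, overlapping values that differ by −0.43 ± 1.09 (SE, q = 1), where the wide error comes from the spread within all 9 groups. Between 6 h and 24 h the same mitosis list had a median of −2.14. Among 23 stem and progenitor genes the median was −0.05 and 0 passed. *Nes*, the nestin gene, differed by 0.46 ± 0.22 (q = 1), *Prom1* by 0.67 ± 0.23 (q = 0.604) and the Notch target *Hes1* by −0.20 ± 0.19 (q = 1). *Id1* and *Id3*, targets of BMP signals, differed by −0.16 ± 0.15 and −0.05 ± 0.14. Of 30 neuronal and 19 oligodendrocyte lineage genes 0 passed, with medians of −0.02 and 0.04. The list of 20 genes of cholesterol synthesis and uptake had the lowest median, −0.18, with 14 members below 0. In 3 of the 20 all 48 h arrays were below all 24 h arrays, beside 6.1% of all genes. Of 21 genes of oxidative phosphorylation, 18 were below 0 with a median of −0.06. Among all genes, 8361 of 19938 were below 0. *Insig1*, which holds back sterol synthesis, stood at 11.66, 11.51 and 11.20 at 48 h, against 11.96, 11.86 and 11.74 at 24 h, separate values that differ by −0.39 ± 0.17 (q = 0.95). In 13 further lists, which hold genes of the Notch and BMP pathways, interferon response, ERK feedback, immediate early response, contraction, matrix, glycolysis, amino acid synthesis, lysosome, synaptic channels, antioxidant response and cell cycle inhibitors, 0 members passed and medians ran from −0.06 to 0.22.

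The 36 genes were then followed in TNF-treated cells, whose 6 arrays at 48 h and 24 h were not used to choose them, apart from the common estimate of error. All 36 were higher at 48 h than at 24 h under TNF, with changes of 0.26 to 2.16 and a median of 0.88 beside −0.04 for all genes. Of the 36, 22 passed the test there (61.1%), beside 0.497% of all genes. *Plscr2* had signals of 10.53, 10.50 and 10.45 in TNF-treated cells at 48 h, against 7.89, 8.30 and 8.81 at 24 h (2.16; q = 2.14e-05), next to its rise of 2.01 without TNF. *Rassf9* stood at 6.53, 6.92 and 6.58 under TNF at 48 h, against 4.66, 4.89 and 5.07 at 24 h (1.80; q = 4.52e-06), next to 0.99 without TNF. For *Cnmd* the TNF-treated arrays were at 7.34, 6.98 and 7.38 at 48 h, against 6.92, 6.89 and 6.78 at 24 h (0.37; q = 0.762). These do not overlap but are close, and its rise without TNF was 1.41. *Ucma* and *Tspan18* likewise rose by 1.98 and 1.15 without TNF and did not pass under TNF, with differences of 0.73 (q = 0.776) and 0.26 (q = 0.921).

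**Figure D4:**
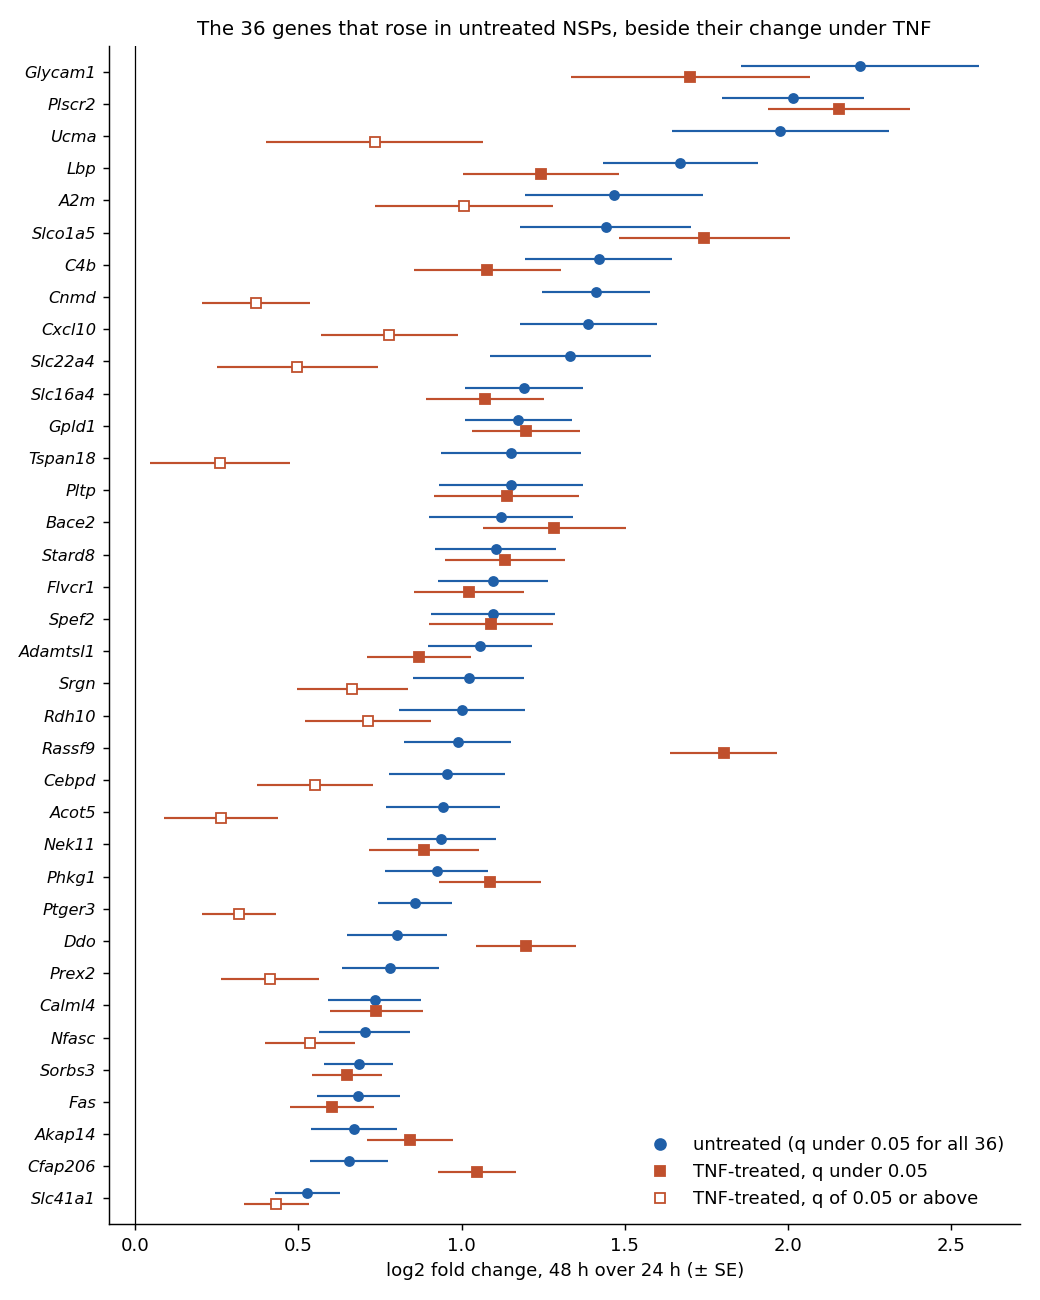
Log2 fold change from 24 h to 48 h of the 36 genes that rose in untreated NSPs, 48 h over 24 h, with its standard error, for untreated cells (circles) and TNF-treated cells (squares, filled where the q-value is under 0.05). Where 2 probe sets of a gene passed, that with the larger rise is drawn. All 36 squares are right of 0, and 22 are filled.

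Whether the change differed between untreated and TNF-treated cells was tested directly. For none of the 36 genes did the difference pass, and its values, untreated minus TNF, ran from −0.81 for *Rassf9* to 1.24 for *Ucma*, with q-values of 1 for each of these 2 genes. For *Cnmd* the difference was 1.04 ± 0.23 (SE, q = 0.652). Over all probe sets the difference passed for 3 (0.00844% of all tested), with 782 at an unadjusted p under 0.05. All 3 fell under TNF and changed less in untreated cells, so that the difference was above 0. *Mylk2*, the myosin light chain kinase of skeletal muscle, was level without TNF, at 7.56, 7.19 and 7.25 at 48 h, against 7.39, 7.36 and 7.21 at 24 h. In TNF-treated cells it fell to 7.72, 7.96 and 8.05 at 48 h, against 10.28, 11.20 and 10.60 at 24 h. The change was 0.01 in untreated and −2.78 in TNF-treated cells, a difference of 2.80 ± 0.26 (SE, q = 2.68e-05). The other 2 probe sets are shared by the glutathione transferase genes *Gsta1* and *Gsta2* and relatives, which cannot be told apart. Their changes were −0.49 and −0.51 without TNF and −2.31 and −2.35 with TNF. *Mylk2* passed in each of the 12 fits that left out 1 array, while the 2 glutathione transferase probe sets passed in 3 of the 12 and lost their calls without any array but untreated 24 h replicate 2, TNF 24 h replicate 3 or TNF 48 h replicate 2, and also with cyclic loess or only the arrays compared. With the replicate block and only the arrays compared, all 3 lost their calls. Some of the 36 genes were at other levels altogether under TNF: *Cxcl10* was at 12.70, 12.66 and 12.65 in TNF-treated cells at 48 h and *Glycam1* at 9.59, 8.66 and 10.04, against 8.40, 8.60 and 8.42 and 12.74, 11.92 and 12.84 in untreated cells at 48 h.

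For most of the 36 genes the means ran in the same direction before 24 h and after 48 h. For 30 of the 36 the mean was higher at each later time of 6, 24, 48 and 72 h, and for 34 it was highest at 72 h. The rise from 24 h to 48 h in these courses follows from the choice of the genes. How many of all genes have such a course was not counted. From 6 h to 24 h, a step that shares the 24 h arrays, 32 were above 0 with a median of 0.80, and 20 passed (55.6%; 5.04% of all genes passed in that direction). From 48 h to 72 h, a step that shares the 48 h arrays, 34 were above 0 with a median of 0.36, and 2 passed, *Cnmd* (1.05; q = 0.0374) and *Cxcl10* (1.38; q = 0.0363), beside 0.01% of all genes. *Plscr2* averaged 5.52 at the start, 6.44 by 6 h, 9.18 by 24 h, 11.19 by 48 h and 11.56 by 72 h. *Cnmd* averaged 6.83 at the start, 6.88 by 6 h, 7.01 by 24 h, 8.42 by 48 h and 9.47 by 72 h, so that its levels up to 24 h were alike and the differences lay after 24 h. *Cxcl10*, *Tspan18*, *Fas* and *Cebpd* were the genes with a lower mean at 24 h than at 6 h, by 0.35, 0.28, 0.16 and 0.02. In contrast, *Gfap* averaged 9.002 at the start, 11.50 by 6 h, 13.33 by 24 h, 13.52 by 48 h and 13.54 by 72 h.

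**Figure D5:**
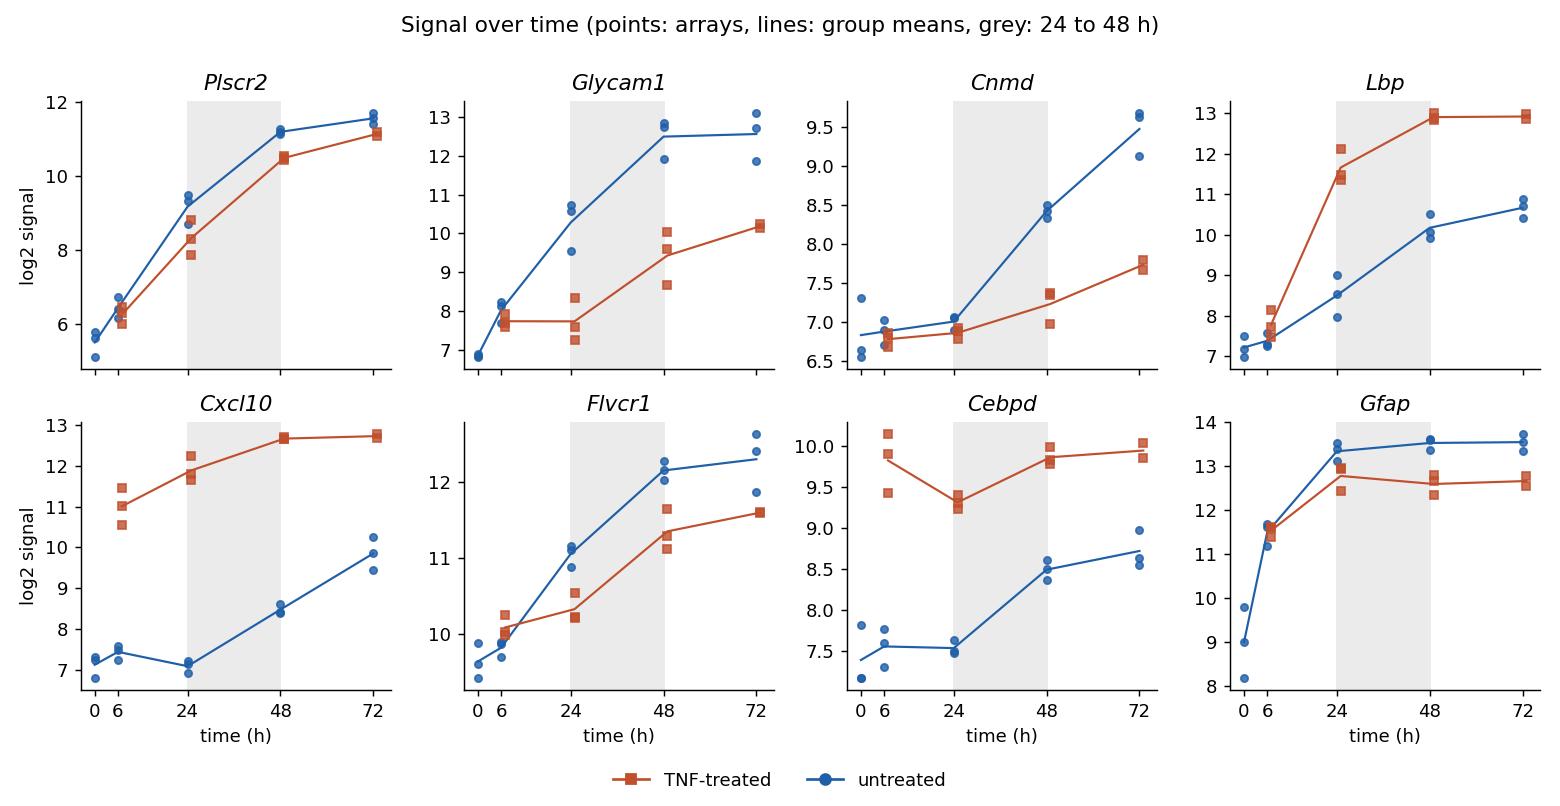
Log2 signal over time of 7 of the 36 genes and of *Gfap*. Points are arrays, lines join group means, TNF-treated cells are squares drawn 1 h to the right, untreated cells are circles, and grey marks 24 to 48 h. *Cnmd*, *Cxcl10* and *Cebpd* are near their 0 h level at 24 h in untreated cells and higher at 48 h, while *Gfap* has reached its level by 24 h.

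The pace of the change was tested as the difference between steps. Against the step from 6 h to 24 h, the change from 24 h to 48 h differed for 14 probe sets, 12 with a lower value (0.0337% of all tested) and 2 with a higher one (0.00562%). All 12 lower calls, *Rpe65* included, were lost without 24 h replicate 2, which left 2 higher and 0 lower, and 3 lower passed without 24 h replicate 3 and 26 without 24 h replicate 1. With only the arrays compared, 2 higher and 2 lower passed. Of the 14, only *Tuba4a* and the probe set 10452316 without a symbol kept their calls there, and *Cpm* lost its call. *Rpe65*, the retinoid isomerase known from the retinal pigment epithelium, changed by −0.82 from 24 h to 48 h and by 2.79 from 6 h to 24 h, a difference of −3.60 ± 0.50 (SE, q = 0.0042). Its arrays stood at 8.64, 9.17 and 8.94 at 48 h, against 9.44, 10.13 and 9.63 at 24 h. *Naaladl2*, the presynaptic gene *Erc2*, the receptor *Lrp1b* and *Zfp185* followed, with differences of −2.51, −2.07, −1.94 and −1.88 and changes of −0.42 to −0.13 from 24 h to 48 h. *Ddo* is among the 36 genes that rose and also in this set, with a rise of 0.80 after 24 h and of 2.36 before it. *Cpm*, carboxypeptidase M, was the named gene with a higher value, as it changed by −0.29 from 24 h to 48 h and by −2.32 from 6 h to 24 h. For *Cxcl10*, −0.35 before 24 h and 1.39 after it, the difference of 1.74 did not pass (q = 0.0919). Since the steps share the 24 h arrays, a high or low 24 h array moves them in opposite directions. Against the step from 48 h to 72 h, 0 probe sets passed, with 368 (1.03%) at an unadjusted p under 0.05, and the value was below 0 for all 36 genes, a direction that the choice of genes by their 48 h arrays favours.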

How the data were processed

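The deposited table holds log2 signals for 35556 probe sets of a mouse Affymetrix array on 26 arrays, produced by the authors in R 3.3.1 by the RMA method of oligo. RMA subtracts background, gives every array the same distribution of values and combines the probes of each set into a single value. The version of oligo was not stated. Values were used as deposited, and no array was left out. Of the probe sets, 21789 carry 1 gene symbol in the platform annotation, 1621 several and 12146 none.

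One group-means model for the 9 groups was fitted with limma 3.58.1 (R 4.3.3) to the 26 arrays together, with 17 residual degrees of freedom and moderated variances, so that the error of each comparison is pooled over all groups. The comparisons were untreated 48 h against 24 h, its difference from the same change under TNF, and its differences from the changes from 6 h to 24 h and from 48 h to 72 h. Following the paper, q-values were the criterion, with a threshold of 0.05, and a smoother written after the qvalue method gave them. The script was tested on simulated data. Array number limits the precision.

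The 27 gene lists hold 598 genes, of which 563 were measured, each represented by the brightest of its probe sets. Lists are described by counts and medians only. The members and lists were chosen with earlier results of these data known. Named by rule were the 15 highest and 15 lowest probe sets with 1 symbol that passed without overlap of arrays (only *Grm4* passed among the lower), up to 4 passing members of a list or its 2 largest changes, the genes the paper names for expression and the 5 highest and 5 lowest of each difference. The further genes that passed, other list members and the large differences that did not pass were chosen after their values were seen. The 36 genes were sorted into groups by their known roles, also after their values were seen.

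Alternatives were a minimum log2 fold change of 1, q under 0.01, Benjamini-Hochberg, only the arrays compared, only untreated arrays, cyclic loess, array medians subtracted, an intensity trend with robust prior, array weights, a replicate block, leaving out the dimmest 40% of probe sets, only probe sets with 1 symbol, probe sets averaged by gene, and leaving out the arrays in turn. Motifs were counted in Python 3.11.15, with letters chosen after the genes that rose were known. Only the arrays were analysed here.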

Additional observations from a re-analysis of the deposited data

Results flagged for a closer look

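The change from 24 h to 48 h was set against the same change under TNF and against the step before it by a test of the difference itself (limma, q-value under 0.05), and 17 differences passed.

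Untreated minus TNF, *Mylk2* differed by 2.80, with a change of 0.01 in untreated and −2.78 in TNF-treated cells. The probe sets shared by *Gsta1* and *Gsta2* differed by 1.82 and 1.84, with changes of −0.49 and −0.51 in untreated and −2.31 and −2.35 in TNF-treated cells.

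Against the step from 6 h to 24 h, 12 probe sets had a lower change from 24 h to 48 h. These were *Rpe65* (−3.60), *Naaladl2* (−2.51 and −2.13 in its 2 probe sets), *Erc2* (−2.07), *Lrp1b* (−1.94), *Zfp185* (−1.88), the clock gene *Per3* (−1.87), *Parp3* (−1.69), the tubulin gene *Tuba4a* (−1.59), *Ddo* (−1.55), the probe set 10471555 without a symbol (−1.44) and *Emc8* (−1.10). *Per3* changed by 0.03 from 24 h to 48 h and by 1.89 from 6 h to 24 h, and *Tuba4a* by 0.13 and 1.72. A higher change from 24 h to 48 h was found for *Cpm* (2.03) and for the probe set 10452316 without a symbol (2.19), which changed by 2.19 from 24 h to 48 h and by 0.01 from 6 h to 24 h. *Naaladl2*, *Erc2*, *Lrp1b* and *Zfp185* had changes of −0.42 to −0.13 from 24 h to 48 h, and without 24 h replicate 2 those of *Naaladl2* and *Zfp185* were 0.02 and 0.04. These differences share the 24 h arrays, and all 12 lower calls were lost without 24 h replicate 2.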

How the results depend on the processing

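Of the 110 probe sets named, 8 changed sign under some alternative (14 values), all without a call in either fit. Over all of them 1880 values kept their side of the threshold, 288 lost a call and 20 gained one. *Clu* gained its call under 7 alternatives, with q-values of 0.000442 to 0.0486.

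The 42 rises and 1 fall became 25 and 1 with a minimum log2 fold change of 1, 16 and 0 at q under 0.01, 21 and 1 with only the arrays compared (15 of the 42 shared), and 21 and 0 with only untreated arrays (20 shared). They became 37 and 0 with cyclic loess (32 shared), 33 and 0 with array medians subtracted (32 shared) and 263 and 94 with array weights (42 and 1 shared). Leaving out 1 array gave 16 to 29 rises and 0 to 2 falls, with 16 rises without 24 h replicate 1, 20 without 24 h replicate 2, 22 without 24 h replicate 3, 29 without 48 h replicate 1, 18 without 48 h replicate 2 and 21 without 48 h replicate 3. These fits have fewer arrays.

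The 3 differences from TNF became 1 at q under 0.01, with only the arrays compared, with cyclic loess, with dim probe sets left out, with only probe sets with 1 symbol and with probe sets averaged by gene, became 6 with array weights, and numbered 1 to 4 with an array left out. The 14 differences from the step before became 8 at q under 0.01, 4 with only the arrays compared, 297 with array weights, 40 with only probe sets with 1 symbol, 23 with probe sets averaged by gene, and 2 to 28 with an array left out (2 without 24 h replicate 2, both higher, 5 without 24 h replicate 3, 9 without 48 h replicate 1, 28 without 24 h replicate 1). The step from 48 h to 72 h gave 0 with each array left out and 1 with array weights. The cause of these shifts was not tested.

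Same-numbered arrays of 48 h and 24 h deviated together with correlations of 0.312, 0.518 and 0.0605 over all probe sets, the last under 0.1, and of 0.476, 0.669 and 0.221 without the dimmest 40%. Whether the numbers pair the arrays thus depended on the probe sets used, and they were not taken as pairs. Each 48 h array correlated best with its own number on both counts, while 24 h replicate 3 did so only without the dimmest 40% (over all probe sets 0.191 with 48 h replicate 1). With the replicate block over all arrays there were 101 rises and 8 falls (42 and 1 shared), 4 differences from TNF, 90 from the step before and 0 from the step after. With the replicate block and only the arrays compared there were 0 rises and 0 falls by limma (4296 at an unadjusted p under 0.05), 1 difference from TNF and 127 from the step before.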
